A study of Drosophila melanogaster with 288 samples.

Results

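The gap genes of the fly are hunchback (hb), Krüppel (Kr), knirps (kni), knirps-like (knrl), giant (gt), tailless (tll) and huckebein (hkb). These 7 genes were taken by name, not by their measured values, from the 17698 genes of the deposited table. All 7 passed a filter on low values that kept 9606 of 13829 protein-coding genes, so every gap gene is accounted for in what follows.

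Gap genes encode transcription factors that read maternal gradients and divide the early embryo into broad domains along its head-to-tail axis. Maternal Bicoid activates the anterior domain of hb, the terminal Torso pathway activates tll and hkb at the poles, and mutual repression between gap genes sharpens their borders. Loss of a gap gene can remove a block of neighbouring segments, which gave the class its name. Several of them are used again after segmentation: hb and Kr mark successive ages of neural stem cells, kni and knrl act in tracheal branches and wing veins, and tll acts in the brain.

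RNA was measured in 288 single whole embryos of the strain W1118, which carries a mutation of the eye colour gene white; the labels name no other allele and no drug. The method, BRB-seq, gives each embryo's RNA its own barcode, pools the barcoded samples and reads only the 3′ ends of the transcripts. The groups are 8 ages after egg laying, named E1 (2 to 3 h), E2 (5 to 6 h), E3 (8 to 9 h), E4 (11 to 12 h), E5 (14 to 15 h), E6 (17 to 18 h), E7 (20 to 21 h) and E8 (23 to 24 h). Levels are counts per 1000000 counts on protein-coding genes (cpm) in the whole body, so fewer cells with a transcript and less transcript per cell cannot be told apart, and the domains themselves are not seen.

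Of these samples, 250 passed limits of 300000 counts and 4500 detected genes. Of those, 97 samples of mixed ages formed a small separate cluster in multidimensional scaling. The study left out such a cluster, which it took for unfertilized eggs. The cluster used here was delimited anew at limits near the study's, and the study's list of samples was not used. The numbers of samples kept, clustered and used here are each larger than the study's, so the sets differ. The 153 embryos used here were 11 of E1, 24 of E2, 27 of E3, 14 of E4, 21 of E5, 18 of E6, 24 of E7 and 14 of E8. Their depth ranged from 377740 to 24787342 counts with a median of 6072822, at which 3 counts correspond to 0.494 cpm. The whole profile was closest to the mean of the embryo's own age in 119 of the 153, but in 6 of 11 at E1, 14 of 24 at E7 and 7 of 14 at E8. Muscle markers (Mhc, wupA and Mlp60A, summed) had a median of 282 cpm at E1, but reached 9187 cpm in an E1 embryo. The samples were sequenced in 4 libraries, named E1_1, E1_2, E2 and E3 like some of the ages, and no E8 embryo came from E1_1 or E1_2. Nothing in the labels ties embryos to separate parents or cages, so p-values measure the spread between single embryos.

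The gap genes were early RNAs, each with its highest median between E1 and E4. In the embryos used, the highest stage median was at E1 for gt, at E2 for hb, Kr, tll and hkb, at E3 for kni and at E4 for knrl. The E1 medians rest on 11 of the 36 E1 samples that passed the limits. Of the 25 left out with the small cluster, 10 had Kr, kni, tll and hkb all above 10 cpm. Medians with those samples added were not computed, so whether hb, Kr, tll and hkb were highest at E2 or E1 is not settled. The ratio of the highest to the lowest stage median ran from 11.5 for Kr to 70.0 for gt, and for hb, gt and tll the lowest medians were at most 0.504 cpm, near the level of 3 counts. In edgeR's quasi-likelihood F test over the 8 ages, all 7 differed (Benjamini-Hochberg adjusted p from 3.2e-28 for hkb to 0.000267 for knrl), but so did 89.7% of the 9606 genes. Consecutive ages were then compared, and a gene was called at an adjusted p under 0.05 with a log2 fold change beyond 1 in size.

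**Figure D1:**
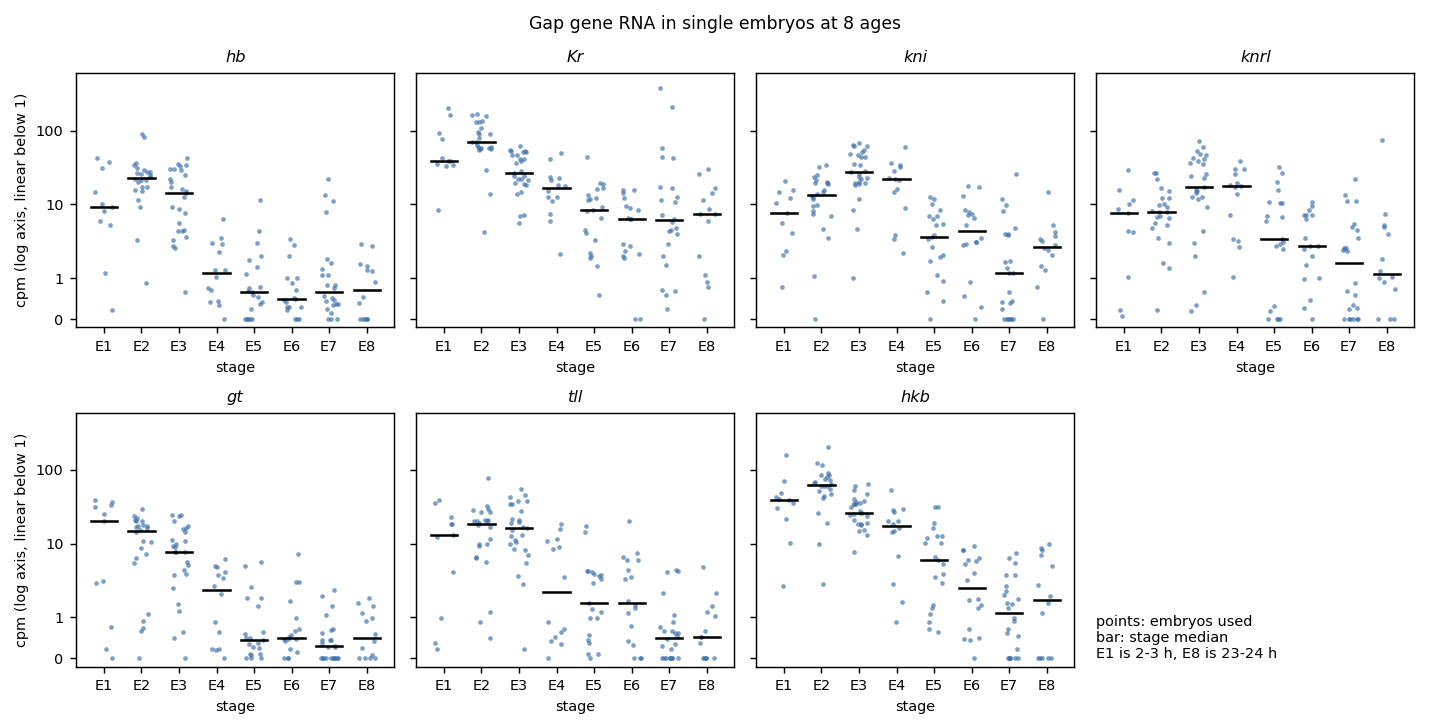
Level of each gap gene (y axis, cpm, logarithmic above 1 and linear below it) in each of the 153 embryos used (points) at 8 ages (x axis), with the median of each age as a bar. hb falls from a median of 22.6 cpm at E2 to 1.17 cpm at E4, kni and knrl are highest at E3 and E4, and a few E7 embryos lie far above the rest for Kr, up to 375 cpm.

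Between E1 and E2 no gap gene passed the test in either direction, while 1.27% of all genes were called higher and 5.76% lower. By edgeR 0 of the 7 had an unadjusted p under 0.05, and the DESeq2 Wald test and limma also called 0. The log2 fold changes ran from -0.996 ± 0.58 (SE) for gt (adjusted p = 0.344) to 0.55 ± 0.58 for hb (adjusted p = 0.675, edgeR quasi-likelihood test). The median over the gap genes was -0.03, against -0.13 over all genes. Both groups held embryos with low levels of several gap genes, and their ranges overlapped for all 7. Standard errors over the 7 genes were 0.48 to 0.63, and 6 of the 11 embryos at E1 had an E1 profile. When the E1 samples of the small cluster were added, gt was called lower at E2 (-1.24, adjusted p = 0.0359), and with all samples that passed the limits so was tll (-1.39, adjusted p = 0.043).

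From E2 to E3 the RNAs of hb, Kr and hkb fell, 3 of 7 gap genes, where 17.2% of all genes were called lower. None of the 7 was called higher, against 11.3% of all genes. The median log2 fold change of the gap genes was -0.84, compared with -0.21 over all genes. From E3 to E4 it was hb, gt and tll that fell, again 3 of 7, where 6.85% of genes were called lower and 15.2% higher, and the median was -1.003 against -0.02. From E4 to E5 only kni was called, as lower, beside 7.9% of genes called lower and 20.5% higher, and the median was -0.69 against 0.00. Between E5 and E6 edgeR, the DESeq2 Wald test and limma called 0 of the 7 (1 had an unadjusted edgeR p under 0.05), while 1.7% of genes were called higher and 2.81% lower, and the median was -0.25 against -0.15. With only the embryos closest to their own age, hkb was called lower at E6 (-1.38, adjusted p = 0.00846, edgeR quasi-likelihood test), 1 of 14 alternatives.

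**Figure D2:**
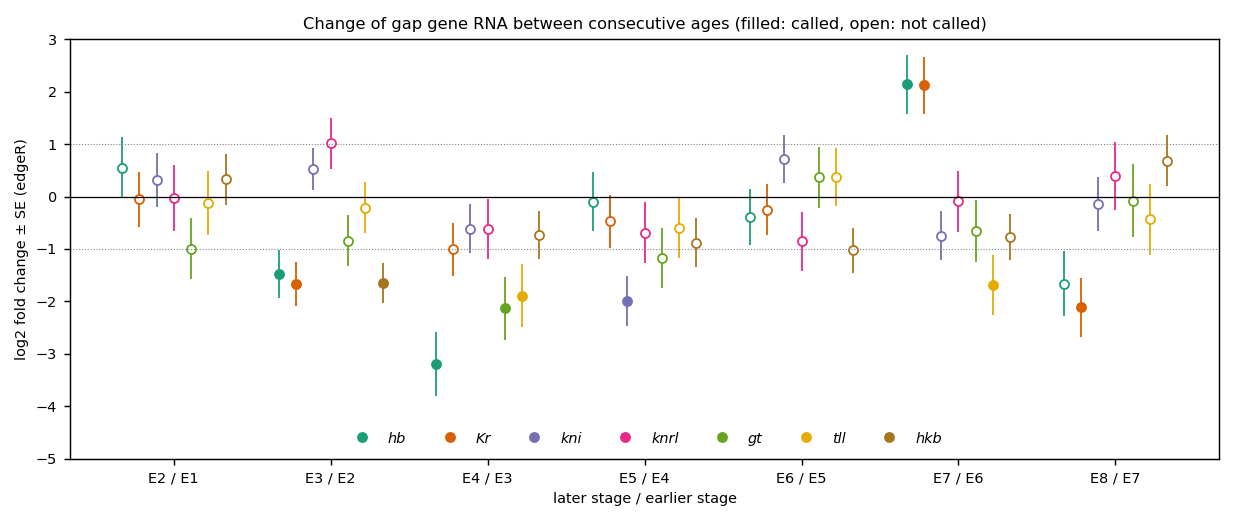
Log2 fold change (y axis) of each gap gene between consecutive ages (x axis, later over earlier), with the standard error of the edgeR fit as bars and filled points for calls at an adjusted p under 0.05 beyond the dotted lines at 1 and -1. Of the 7 calls before E6 all are below 0, led by hb from E3 to E4 at -3.20, and the 2 calls above 0 are hb and Kr from E6 to E7.

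hb encodes a zinc finger factor of the anterior and posterior embryo and is also deposited by the mother. Its level was 0.224, 9.17 and 42.4 cpm (lowest, median and highest embryo) at E1 and 0.878, 22.6 and 90.99 cpm at E2. At E3 it was 0.652, 14.3 and 42.7 cpm, and at E4 it was 0, 1.17 and 6.31 cpm. The E4 embryos thus lay at the bottom of the E3 range, and no E4 embryo reached the E3 median. hb fell from E2 to E3 (log2 fold change -1.47 ± 0.46, adjusted p = 0.00716, edgeR quasi-likelihood test) and further from E3 to E4 (-3.20 ± 0.61, adjusted p = 1.27e-05). The earlier fall was called in 10 of 14 alternatives. It lost its call without library E2 (-1.35, adjusted p = 0.0743), without library E3 (-0.98, adjusted p = 0.107), with DESeq2 size factors (-1.10, adjusted p = 0.0545) and with the small cluster included (-1.10, adjusted p = 0.114). The later fall kept its call in 13 of 14 alternatives and was -1.08 (adjusted p = 0.178) when the small cluster was included. From E5 to E8 the medians lay between 0.480 and 0.720 cpm, about the level of 3 counts.

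Kr, a zinc finger factor of the central embryo and later of neural stem cells and other tissues, was at 8.28, 39.2 and 204 cpm at E1 and 4.26, 69.6 and 169 cpm at E2. At E3 it was 5.54, 26.3 and 61.5 cpm, so the highest E3 embryo lay below the E2 median. Kr fell from E2 to E3 by 1.67 ± 0.42 on the log2 scale (adjusted p = 0.000779, edgeR quasi-likelihood test), a call made in all 14 alternatives. Its median declined to 16.4 cpm at E4 and 8.26 cpm at E5. These steps did not pass the edgeR quasi-likelihood test (-1.003 ± 0.50, adjusted p = 0.137, and -0.47 ± 0.51, adjusted p = 0.508). The step to E4 was called as lower in 2 of 14 alternatives. Unlike hb, Kr stayed above the counting limit at late ages, with medians of 6.27, 6.07 and 7.43 cpm at E6, E7 and E8. The Kr gene lies on chromosome 2R (25226611 to 25231394, BDGP6) and overlaps CG9380 on the opposite strand, with which it shares 0 exonic bases.

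kni and knrl encode closely related nuclear receptor-like factors that lie near each other on chromosome 3L (starts at 20692330 and 20597141). kni had its highest median at E3. It was at 0.772, 7.66 and 21.0 cpm at E1, 0, 13.5 and 34.1 cpm at E2, 1.02, 27.3 and 68.5 cpm at E3 and 2.17, 21.9 and 59.4 cpm at E4. The steps up to E4 did not pass the test, and their ranges overlapped. The step from E3 to E4 was called as lower in 1 of 14 alternatives. At E5 kni was at 0, 3.62 and 12.6 cpm, and the highest E5 embryo lay below the E4 median. This fall was called (-1.99 ± 0.48, adjusted p = 0.000456, edgeR quasi-likelihood test), also in all 14 alternatives. Later medians lay between 1.18 and 4.36 cpm.

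knrl had its highest medians at E3 and E4. Its values were 0.0815, 7.66 and 28.8 cpm at E1, 0.22, 7.84 and 26.7 cpm at E2, 0.195, 17.2 and 72.7 cpm at E3 and 1.05, 17.5 and 38.8 cpm at E4. The difference of E3 from E2 was 1.02 ± 0.49 (adjusted p = 0.0867, edgeR quasi-likelihood test) and thus not called. It was called as higher in 4 of 14 alternatives, among them the fit without library E1_2 (1.46, adjusted p = 0.0186). At E5 the median was 3.36 cpm with a highest embryo of 32.3 cpm, so the E5 range overlapped nearly all of the E4 range. The E5 step was -0.69 ± 0.59 (adjusted p = 0.395, edgeR quasi-likelihood test) and not called. It was called as lower in 1 of 14 alternatives, over which its log2 fold change ran from -2.15 to -0.19. Outside the alternatives, knrl was the 1 gap gene with no call between consecutive ages. An E8 embryo stood out at 74.9 cpm, where the E8 median was 1.14 cpm.

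gt, a leucine zipper factor with an anterior and a posterior domain, had its highest median at the earliest age. It was at 0, 20.4 and 38.6 cpm at E1, 0, 14.7 and 29.6 cpm at E2 and 0, 7.80 and 24.8 cpm at E3. These ranges overlapped, and neither step passed the test. At E4 gt was at 0, 2.38 and 6.27 cpm, with the highest embryo below the E3 median. The fall from E3 was called (-2.13 ± 0.60, adjusted p = 0.00393, edgeR quasi-likelihood test), except without library E1_1 (-2.08, adjusted p = 0.0519). From E5 on the medians were between 0.291 and 0.506 cpm, where a level rests on a few counts.

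tll and hkb are the terminal gap genes, a nuclear receptor and a zinc finger factor that are switched on at the poles by Torso signalling. tll was at 0.224, 13.1 and 38.8 cpm at E1, 0.505, 18.4 and 78.2 cpm at E2 and 0.223, 16.4 and 55.8 cpm at E3. Neither step between these ages passed the test. At E4 it was at 0, 2.22 and 18.7 cpm, a fall of 1.89 ± 0.60 on the log2 scale (adjusted p = 0.0118, edgeR quasi-likelihood test). The groups still overlapped, and the call was lost without library E1_1 (-2.01, adjusted p = 0.0866) or E2 (-1.75, adjusted p = 0.0805). tll fell again from E6, at 0, 1.56 and 20.3 cpm, to E7, at 0, 0.504 and 4.33 cpm (-1.68 ± 0.57, adjusted p = 0.023). This later call was lost without library E1_1 (-1.63, adjusted p = 0.0796), without E1_2 (-1.13, adjusted p = 0.232) and in 3 other alternatives.

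The called fall of hkb came between E2 and E3. It was at 2.70, 39.0 and 160 cpm at E1 and 2.85, 62.3 and 204 cpm at E2, where the quartile ranges of the 2 ages did not overlap although the difference was 0.33 ± 0.48 (adjusted p = 0.787, edgeR quasi-likelihood test). At E3 hkb was at 7.61, 26.0 and 63.9 cpm, and the fall from E2 was called (-1.65 ± 0.39, adjusted p = 0.000281, edgeR quasi-likelihood test), also in all 14 alternatives. After that the median went down at each age to E7, through 17.4, 6.09, 2.48 and 1.16 cpm, with no single step called. The steps from E3 to E4 and from E4 to E5 were each called as lower in 2 of 14 alternatives. Among these calls were E3 to E4 without library E3 (-1.25, adjusted p = 0.0449) and E4 to E5 without library E1_2 (-1.28, adjusted p = 0.047), by edgeR's quasi-likelihood test. Over the alternatives the log2 fold change ran from -1.39 to -0.58 for E3 to E4 and from -1.28 to -0.30 for E4 to E5.

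Within single libraries the 7 falls before E6 had the same sign in all 4 libraries, with log2 fold changes between -4.31 and -0.0037, although at most 1 library called any of them. Ordering the 8 medians of each gene, the quartile ranges of neighbours in the order were separate only between E1 and E4 for hb and between E2 and E1 for hkb. For every other pair of neighbours in the order of medians they overlapped. Taken by age instead, the quartile ranges of consecutive ages were separate in 5 of 49 pairs, for hb between E3 and E4, Kr between E2 and E3, kni between E4 and E5, and hkb between E1 and E2 and between E2 and E3.

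From E6 to E7 hb and Kr were called higher, 2 of 7, where 12.4% of all genes were called higher, and tll was called lower, where 5.22% were. From E7 to E8 Kr was called lower, where 1.57% of genes were, and none of the 7 higher, against 1.29%. The medians over the 7 were -0.65 and -0.14 at these steps, against 0.21 and -0.09 over all genes. These late calls of hb and Kr came with little change of the median. The hb medians were 0.480 cpm at E6 and 0.669 cpm at E7, with highest embryos of 3.39 and 22.0 cpm. For Kr the E6 values were 0, 6.27 and 15.6 cpm, the E7 values 0.254, 6.07 and 375 cpm and the E8 values 0, 7.43 and 30.6 cpm.

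Of the 24 embryos at E7, 5 had Kr above 40 cpm. Their Kr levels were 43.2, 44.5, 58.0, 206 and 375 cpm, from 17, 73, 263, 78 and 271 counts. All came from libraries E2 and E3, which held 6 and 10 of the 24 embryos. In the 3 with the most Kr the whole profile was closest to E1, and the 9 maternal egg RNAs summed to 160 to 250 cpm, where the E7 median was 56.02 cpm. Maternal egg RNA was as high in 4 E7 embryos with Kr below 40 cpm. It was at 169, 180, 381 and 622 cpm, beside 0.593, 4.43, 17.4 and 0.706 cpm of Kr. Of these Kr levels 17.4 cpm lay above the upper quartile of E7, 16.97 cpm. The embryo with 622 cpm also had the highest hb of the age. In the 3 with the most Kr, kni was at most 0.441 cpm, tll at most 0.661 cpm and hb at 7.94 to 13.4 cpm. At their depths 3 counts equal 0.661 to 7.94 cpm. CG9380, which overlaps Kr on the opposite strand, was at 22.0, 0 and 2.77 cpm in the 3 embryos and at 102 and 119 cpm in the other 2. The log2 fold change from E6 to E7 was 2.12 ± 0.54 (adjusted p = 0.00183) for Kr and 2.14 ± 0.56 (adjusted p = 0.00237) for hb, and that from E7 to E8 was -2.11 ± 0.57 (adjusted p = 0.0209) for Kr, by edgeR's quasi-likelihood test. With only the embryos closest to their own age these became -0.0056, 1.01 and 0.24, none of them called. Without library E3 the Kr values were 0.85 (adjusted p = 0.172) and -0.75 (adjusted p = 0.63), and without library E2 the rises at E7 were 1.78 for Kr (adjusted p = 0.148) and 1.39 for hb (adjusted p = 0.24).

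The small cluster matters for gap genes at E1, because 25 of the 36 E1 samples that passed the limits lie in it. It was delimited without the gap genes and the 5 lists of related genes given at the end, but most markers of early zygotic and maternal RNA were among the genes used. In these 25 samples Kr was at 0, 3.77 and 248 cpm (lowest, median and highest), against 8.28, 39.2 and 204 cpm in the 11 embryos used. hb was at 0, 13.6 and 288 cpm, gt at 0, 0.642 and 149 cpm and tll at 0, 0.78 and 157 cpm. The small cluster thus held both the lowest and, for these genes, the highest levels of the age. It held 9 samples above the highest used embryo for hb, 9 for tll, 8 for gt, 7 for kni and 1 for Kr, and none for knrl or hkb.

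The same samples carried several gap genes at once. Kr, kni, tll and hkb were all above 10 cpm in 10 of the 25 samples, and no other sample had any of these 4 genes above 10 cpm. In those 10, hb was also above 10 cpm in 10 and gt in 9. hb exceeded 10 cpm in 4 further samples, and whether that RNA was maternal or zygotic was not tested. The split depends on the level of 10 cpm. A sample among these 4 had Kr at 7.42, kni at 3.44, tll at 5.43 and hkb at 6.09 cpm. In it gt was at 12.2 cpm and hb at 71.7 cpm, and sna, twi, zen, sog and ftz summed to 153 cpm. The 10 samples came from all 4 libraries, with 3, 2, 2 and 3 of them in E1_1, E1_2, E2 and E3. Among the used E1 embryos, Kr was above 10 cpm in 10 of 11, hkb in 10, tll in 7, gt in 6, hb and kni in 5 each and knrl in 4.

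**Figure D3:**
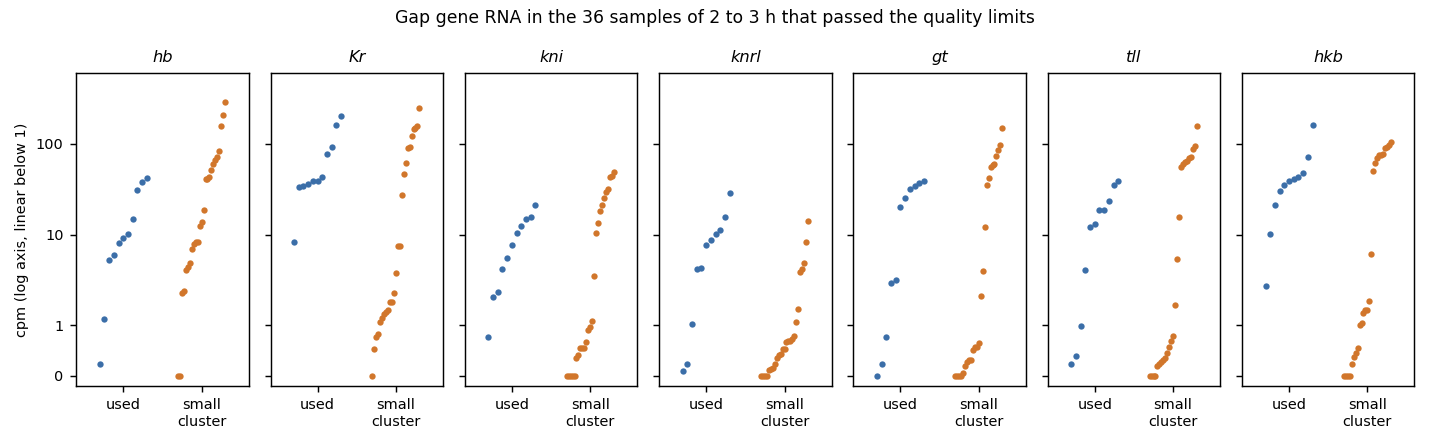
Level of each gap gene (y axis, cpm, logarithmic above 1 and linear below it) in the 36 samples of 2 to 3 h that passed the limits, in order of level within the 11 embryos used (blue) and the 25 samples of the small cluster (orange). For Kr, kni, tll and hkb, 10 orange points lie above 10 cpm, and for tll they reach 157 cpm, above the 38.8 cpm of the highest embryo used.

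Other early RNAs were read in the same samples. The summed level of 5 early zygotic genes (sna, twi, zen, sog and ftz, which pattern the embryo once its own genome is on) was 1.33, 24.8 and 779 cpm in the 25 samples and 14.8, 193 and 485 cpm in the 11 embryos. The summed level of 9 maternal egg RNAs (bcd, nanos, osk, gcl, pgc, wisp, gnu, png and plu) was 125, 977 and 2729 cpm in the small cluster and 56.6, 158 and 1124 cpm in the embryos used. The sample of the cluster with the most gap gene RNA, 826 cpm in all, had 565 cpm of early zygotic and 466 cpm of maternal egg RNA. The part of maternal RNA in these levels was not tested. Among the 72 samples of the cluster at later ages, hb exceeded 10 cpm in 14, Kr in 6, gt in 2 and the other 4 genes in 0, with medians from 0.174 cpm for gt to 2.11 cpm for hb.

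**Figure D4:**
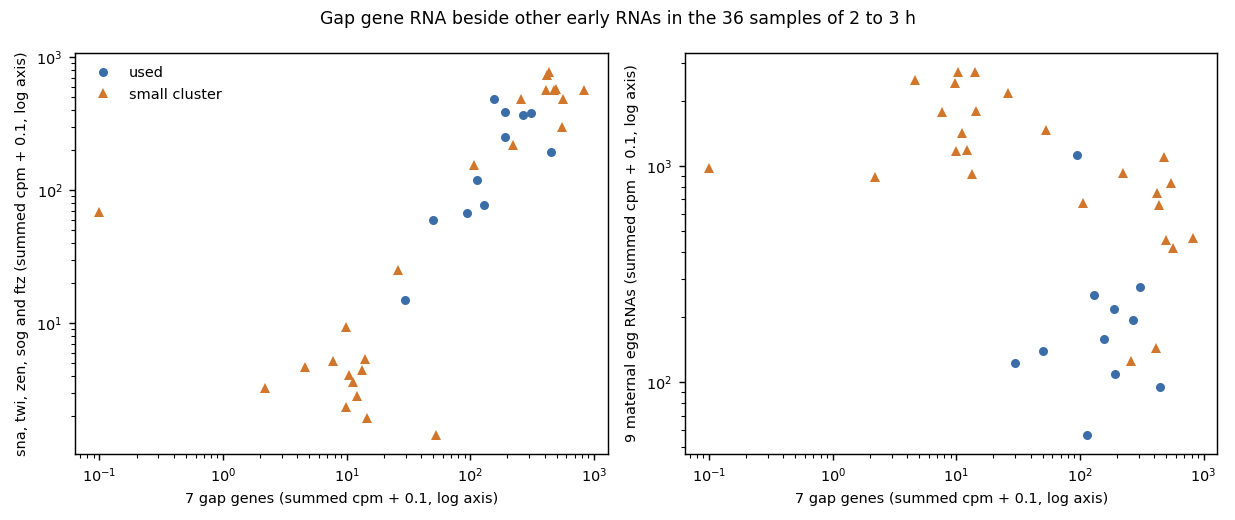
Summed level of the 7 gap genes (x axis, cpm + 0.1, log axis) against the summed level of 5 early zygotic genes (left y axis) and of 9 maternal egg RNAs (right y axis, both cpm + 0.1, log axes) in each of the 36 samples of 2 to 3 h. Orange triangles of the small cluster reach 826 cpm of gap gene RNA, above the 449 cpm of the highest embryo used (blue circles), and maternal RNA up to 2729 cpm lies at the low end of gap gene RNA.

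Gap genes were compared pairwise over the 11 used E1 embryos, on log2(cpm + 1). Of 21 pairs, 1 passed after Benjamini-Hochberg adjustment, hb with hkb (Pearson's r = 0.82, permutation p = 0.00227, adjusted p = 0.0477). Spearman's rho for this pair was 0.64 (permutation p = 0.0406, adjusted p = 0.213), and r was 0.63 without the 2 embryos farthest from the median of hb. The strongest pair by rank was kni with gt (rho = 0.79, permutation p = 0.0053, adjusted p = 0.111). Neither the Pearson test with a pseudocount of 0.5 nor that over the 6 embryos with an E1 profile left any pair past the threshold. Libraries held 1 to 4 of these embryos, too few for a value within a library. Over all 153 embryos, which share the course of age, r between gap genes ran from 0.31 for Kr with kni to 0.77 for hb with hkb.

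Over the same 153 embryos, the genes with the most similar log2 levels were named for each gap gene as a description. Those nearest to hb were pav (a kinesin of cell division, r = 0.85), CycE (cyclin E, r = 0.84) and nesd (r = 0.83), and nesd was also among the 3 nearest to tll (r = 0.73) and hkb (r = 0.80). Kr was nearest to the Notch ligand Delta (r = 0.81), and gt to CG13427 (r = 0.80), whose medians fell from 3436 cpm at E1 to 134 cpm at E4. kni and knrl had less similar neighbours, bnb (r = 0.71) for kni and nonA (r = 0.67) and the neuronal gene elav (r = 0.66) for knrl. All of these neighbours were, like the gap gene concerned, highest at E1 to E4.

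The spread between embryos of an age was also computed in the study's own measure, the adjusted SD. This is the SD of log2 expression over the embryos of an age divided by an expected SD that is the same at every age. The expected SD was predicted from the gene's mean level over the embryos of all ages. A gene's level at the age itself is therefore not corrected for. At E1 all 7 gap genes were above the median of all genes, with a median of 1.01 against 0.738. hkb was below it by the median absolute deviation (MAD) instead (0.445 against 0.475) and with only the embryos closest to their own age (0.347 against 0.429). gt had the widest spread at 1.76, above 98.5% of all genes, followed by tll at 1.33 and hb at 1.17. With only the embryos closest to their own age gt was at 0.998 and tll at 0.536. At E2 and E3, 6 and 5 of the 7 were above the median of all genes (0.866 against 0.602, and 0.741 against 0.571, as medians). The number at E2 was 4 in the embryos closest to their own age, with hb, Kr and hkb below, and 7 with the MAD. At E5, E6, E7 and E8 only 2, 1, 2 and 1 of them were. In this measure a value with a count of 0, or any log2 value below 0, was set to 0, which flattens the spread of low RNAs. At E4 hb had an adjusted SD of 0.0787 with a median of 1.17 cpm, though only 1 of 14 embryos was at 0 counts. The gap gene with the lowest adjusted SD at E7, gt (0.0567), was at 0 counts in 10 of 24 embryos. Kr at E7 was the opposite, at 1.39 and above 91.6% of genes, in the age that holds the 5 embryos with Kr above 40 cpm, but at 0.807 and above 56.8% of genes in the embryos closest to their own age. These values describe 1 set of embryos, and no test was run on them.

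**Figure D5:**
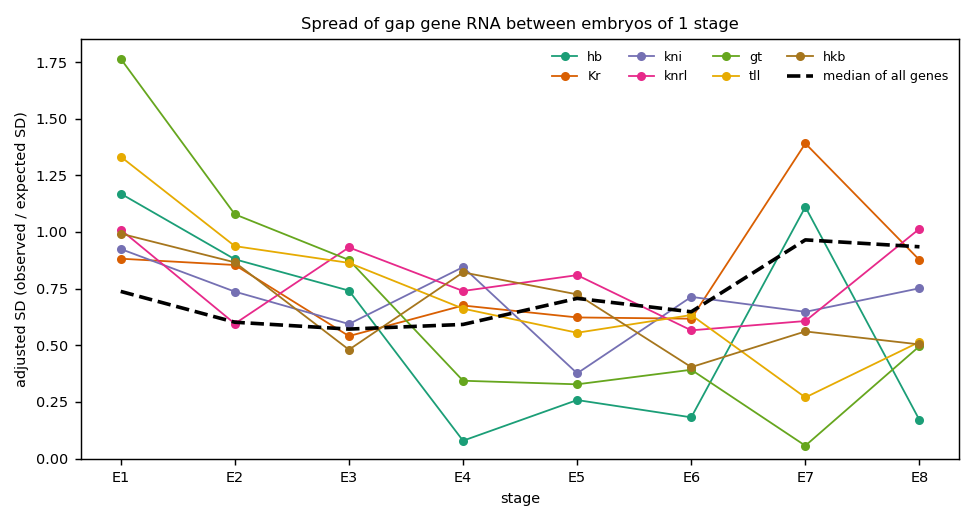
Adjusted SD (y axis, observed over expected SD of log2 expression between embryos) of each gap gene at 8 ages (x axis), with the median of all 9606 genes as a dashed line. With all 153 embryos 7 genes lie above the dashed line at E1, where gt reaches 1.76, and at E7 Kr (1.39) and hb (1.11) lie above it. With only embryos closest to their own age, hkb at E1 (0.347) and hb at E7 (0.638, against 0.760) lie below it.

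The genes that act above, beside and below the gap genes moved as follows in the same fits. Of 14 maternal and early regulators 13 were tested. Between E1 and E2 edgeR called 0 of them, with 3 at an unadjusted p under 0.05, and tsl (a Torso pathway gene, 1.27) and Trl (a chromatin factor, 1.25) were higher at E3 than E2. At later steps 3 calls were higher (tsl at E5, bcd and cic at E7) and 1 was lower (Trl at E7). bcd, whose protein activates hb, was at medians of 1.56 cpm at E1 and 2.22 cpm at E2 in the used embryos. Its rise at E7 (3.06 ± 0.56, adjusted p = 1.74e-05, edgeR quasi-likelihood test) came in an age where bcd reached 204 cpm in 1 of the embryos with high Kr.

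The 6 head gap genes, which pattern the head in overlapping domains, were called at steps between E2 and E5 only. btd (-1.61) and slp1 (-1.40) fell from E2 to E3 while oc rose (1.32), slp1 fell again to E4 (-1.23) and to E5 (-1.09), and croc fell to E5 (-2.03). The median over the 6 was 0.11 from E2 to E3 and -0.62 from E3 to E4. Among 9 genes of the pair-rule class, several of which gap proteins control, eve (-2.54), prd (-2.88), opa (-1.96) and hry (-1.45) fell from E1 to E2. No gap gene was called at that step, and the median over the 9 was -1.34. From E2 to E3 ftz (-1.16) and ftz-f1 (-2.82) fell and eve (2.11) and opa (1.14) rose. From E3 to E4 there were 1 call higher and 2 lower, where 15.2% of all genes were called higher and 6.85% lower. From E4 to E5 there were 2 and 2, beside 20.5% and 7.9% of all genes. ftz-f1 fell at both of the following steps.

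Of the 8 Hox genes, which gap proteins position, edgeR called 0 from E1 to E2 (median 0.92, with 4 at an unadjusted p under 0.05), and abd-A (1.09) and Abd-B (1.15) rose from E2 to E3. The 1 other Hox call was lab, lower at E7 (-1.80). Of 7 other genes of the temporal series in neural stem cells, svp rose (1.86) and dan (-2.78) and danr (-1.97) fell from E1 to E2. nub (-1.11) and pdm2 (-1.95) fell from E2 to E3, cas fell to E4 (-1.63) and to E5 (-1.34), pdm2 fell to E5 (-2.36) and pdm2 rose at E7 (1.83). For all of these lists, medians over all 9606 genes lay between -0.21 and 0.21 at each step. The shares of all genes called higher, from E2 to E8 in order, were 1.27, 11.3, 15.2, 20.5, 1.7, 12.4 and 1.29%. Those called lower were 5.76, 17.2, 6.85, 7.9, 2.81, 5.22 and 1.57%.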

How the data were processed

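The authors separated and trimmed the BRB-seq reads, mapped them with STAR to BDGP6 and counted them on genes with HTSeq (Ensembl release 91), and they deposited raw counts with no normalization. Samples were taken from the labels, 0 columns were unmapped, and 1 E7 sample with conflicting ages was kept by its title. Rows were matched to Ensembl release 115 (17560 of 17698). Protein-coding genes with a mean above 1 cpm were kept, and 4.71% of counts lay outside protein-coding genes. The small cluster was delimited at -0.025 and 0 on the scaling axes, near the study's lines, after quantile voom and ComBat (limma 3.58.1, sva 3.50.0). Ages were compared by edgeR 4.0.16 (TMM, quasi-likelihood, library as a term, Benjamini-Hochberg over 9606 genes) in R 4.3.3, and relations by 100000 permutations, two-sided. For each gap gene the 3 genes of highest Pearson's r were named. Alternatives covered size factors and DESeq2 1.42.0, filters, the library term, embryos and libraries left out, depth and limma on quantile voom. The fits were tested on simulated data. The gap genes and all gene lists were chosen with earlier results of these data known. At the lowest depth 3 counts equal 7.94 cpm, and such limits cover counting error only.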

Additional observations from a re-analysis of the deposited data

Results flagged for a closer look

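Gap gene RNA was above its highest level in the used E1 embryos in several E1 samples of the small cluster, which are left out of the comparisons except in the alternatives that add them. There were 9 such samples of 25 for hb (highest 288 cpm, against 42.4 cpm), 9 for tll (157 against 38.8 cpm), 8 for gt (149 against 38.6 cpm), 7 for kni (48.7 against 21.0 cpm) and 1 for Kr (248 against 204 cpm). At least 1 gap gene was above that level in 12 of the 25 samples, and 3 or more were in 8.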

How the results depend on the processing

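Of the 11 gap gene calls, 11 were kept by the DESeq2 Wald test, with no library term, with no filter and without the sample of conflicting ages. DESeq2 size factors, the fit without library E1_2 and E1 joined by its small-cluster samples kept 10. Thinning and all samples that passed the limits kept 9, and the fits without library E1_1 or E3 kept 8. It was 7 each without library E2, with limma and with only the embryos closest to their own age. Of the 38 steps not called, limma called 5 and the other alternatives 0 to 2. The late calls of Kr changed sign with only the embryos closest to their own age, with -0.0056 from E6 to E7 and 0.24 from E7 to E8. Within single libraries, some with 1 or 2 embryos of an age, the E6 to E7 values that changed sign were -0.046 for hb in E1_1, -0.88 and -0.69 for Kr in E1_1 and E1_2 and 0.16 for tll in E3. No paired analysis was possible because the ages share no replicate numbers, and relations over all E1 samples were not computed, as these fall into separate clusters. The within-library values and the set of E1 joined by its small-cluster samples were chosen after seeing the data. The causes of the changes were not tested.

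Within single libraries most counts of all genes were lower. In library E1_1 alone, 241 were higher at E2, 866 at E5, 59 at E6 and 47 at E7, and lower were 105 in E6 and 3 in E7. In library E1_2 alone, 0 were higher and 0 lower in E2, 0 higher and 3 lower in E3, 84 and 2 in E4, 261 and 98 in E5, 75 and 61 in E6 and 155 and 156 in E7, and 5075 differed over the ages (8618). In library E2 alone, 304 were lower in E2, 282 higher and 434 lower in E3, 239 and 23 in E4, 882 and 356 in E5, 22 and 31 in E6, 389 and 161 in E7 and 27 and 18 in E8. In library E3 alone, 0 were higher and 0 lower in E2, 214 and 23 in E3, 3 and 0 in E4, 435 and 52 in E5, 0 and 0 in E6 and in E7, and 6 and 7 in E8, and 4103 differed over the ages. Where edgeR called 0, 256 to 1265 genes had an unadjusted p under 0.05, and no other tool was run within libraries.

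The number of genes called between ages, which is only the background here, moved by over 1.5 times as follows, in the order of the ages. The DESeq2 Wald test called 257 genes higher at E2 (122 by edgeR), 1704 at E3 (1085), 253 at E6 (163) and 261 at E8 (124), and 318 lower at E8 (151). DESeq2 size factors gave 433 lower at E4 (658). With no filter, 258 were higher at E6, 249 higher at E8 and 295 lower at E8. With all samples that passed the limits, 895 were higher at E2, 797 at E4 (1464) and 373 at E8, and lower were 837 in E3 (1652), 320 in E4, 422 in E5 (759), 881 in E6 (270) and 1284 in E8. With E1 joined by its small-cluster samples, 2000 were higher and 1763 lower at E2 (553). With only embryos closest to their own age, 611 were higher at E2, 975 at E6 and 718 at E8, 833 were lower at E2, 1021 at E6, 823 at E7 (501) and 479 at E8, and 0 of the relations between gap genes passed (1), as with a pseudocount of 0.5 (0). Thinning to 300000 counts gave 359 lower at E2, 1034 at E3 and 100 at E8. Without library E1_1, 57 were higher at E2, 791 at E4 and 22 at E6, and 959 were lower at E3, 304 at E4, 129 at E6 and 85 at E8. Without E1_2, 36 were higher at E6, and 142 lower at E6 and 304 at E7. Without E2, 19 were higher at E2, 37 at E6, 440 at E7 (1191) and 252 at E8, and lower were 350 in E2, 785 in E3, 396 in E4, 136 in E6, 312 in E7 and 575 in E8. Without E3, 305 were higher at E2, 468 at E6 and 28 at E8, and 13 lower at E8. By limma, 317 were higher at E2, 695 at E6, 607 at E7 and 72 at E8, and lower were 348 in E2, 926 in E3, 1058 in E4, 1969 in E5, 861 in E7 and 65 in E8.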

Other observations

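Some single embryos combined gap gene levels in a way the rest did not. An E1 sample of the small cluster had 145 cpm of Kr and 157 cpm of tll but 0.191 cpm of gt, at a depth of 5235916 counts, while gt was at least 35.3 cpm in the other 9 samples with Kr above 10 cpm. A used E1 embryo had the highest knrl of the age, 28.8 cpm, and 163 cpm of Kr, with 2.91 cpm of gt and 2.33 cpm of kni. The E8 embryo with 74.9 cpm of knrl had a depth of 467513 counts, where 3 counts equal 6.42 cpm, and its whole profile was closest to E1. The E1 sample of the small cluster with all 7 gap genes at 0 counts had a depth of 383649 counts, at which 3 counts allow up to 7.82 cpm of each.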
